A study of Zea mays with 10 samples.

Results

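Of the 17621 maize probe sets on the array, 62 were high only at the first dawn. A probe set is the group of short probes that reports 1 transcript. The 62 were selected on the deposited signals themselves: the signal at ZT0 was at least 200 and at least 1.7 times the signal on each of the other 9 arrays. The comparison of ZT0 with the other arrays therefore describes how the members were chosen, carries no test, and supports nothing further.

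The arrays followed the circadian time course of seedlings of the maize inbred B73. Plants were grown for 7 days in photocycles of 12 h light and 12 h dark and were then kept in constant light, and aerial tissue was harvested at intervals counted in hours of zeitgeber time (ZT) from the last dawn. Each array held RNA pooled from 3 replicate samples of 5 seedlings, and there was 1 array per time point: ZT0, ZT4 and ZT8 on the first day, ZT20 and ZT24 around the second dawn, and then every 4 h up to ZT44. Nothing from ZT12 or ZT16 was used here. All groups shared the inbred, the tissue and the entrainment. They differed in the time spent in constant light and, with it, in time of day and seedling age. ZT0 was the only array that followed a dark period, so the end of the night, the start of constant light and anything particular to that 1 array cannot be told apart. With no replicate at any time point, every p-value below measures scatter between time points.

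The plant circadian clock is a set of transcription factors that repress and activate one another, and many leaf transcripts have their maximum around dawn because of it. Such a rhythm persists in constant light, whereas transcripts that follow darkness, light or the sugar status of the leaf lose that daily input when the night is omitted. At the end of a night leaf starch has been drawn down, seedling growth is often rapid, and enzymes that need light to act wait for dawn. The members were measured in whole aerial tissue, where less RNA per cell and fewer cells of a type cannot be told apart.

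Applied to the other arrays in turn, the same rule selected between 0 and 9 probe sets. It selected 7 at ZT4, 9 at ZT8, 5 at ZT28, 1 each at ZT36, ZT40 and ZT44, and 0 at ZT20, ZT24 and ZT32, against 62 at ZT0. ZT0 had a neighbouring array 4 h away on 1 side only, which was also true of ZT8, ZT20 and ZT44. The arrays were alike in level, with median signals between 188 and 214 and between 68.9% and 70.02% of probe sets at 50 or more, a level used below as the limit of a usable signal. With the arrays scaled to the same median, 54 of the 62 members remained, and after quantile normalization 59 of them remained.

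**Figure D1:**
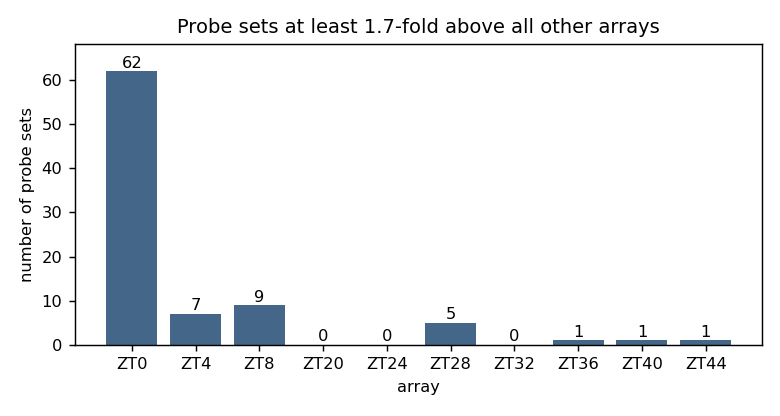
Number of probe sets (y axis) with a signal of at least 200 on the named array (x axis) and at least 1.7 times the signal on every other array. ZT0 holds 62 probe sets and no other array more than 9.

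The ratio of the ZT0 signal to the highest signal on any other array ran from 1.703 to 8.04, with a median of 2.14. It was at least 2 for 36 members, at least 3 for 15 and at least 5 for 8. At the limit of 1.7, the 3 members just inside were Zm.244.2.A1_at at 1.703 and Zm.17973.1.A1_s_at and a match to fructose-1,6-bisphosphatase at 1.72. The 3 probe sets just outside were Zm.301.1.A1_a_at, Zm.6085.2.A1_a_at and GRMZM2G026833, a match to the transcription factor GPRI1, each at 1.68. Of the 62 members, 22 had a gene symbol in the platform annotation or a matched function. Of the other 40, 39 had no gene ID, and 1, Zm.16227.1.A1_at, matched GRMZM2G126900, which carries no function. Most functions come from the closest Arabidopsis gene, so that a name such as RVE2 stands for a match to that gene and not for a maize locus of known function.

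**Figure D2:**
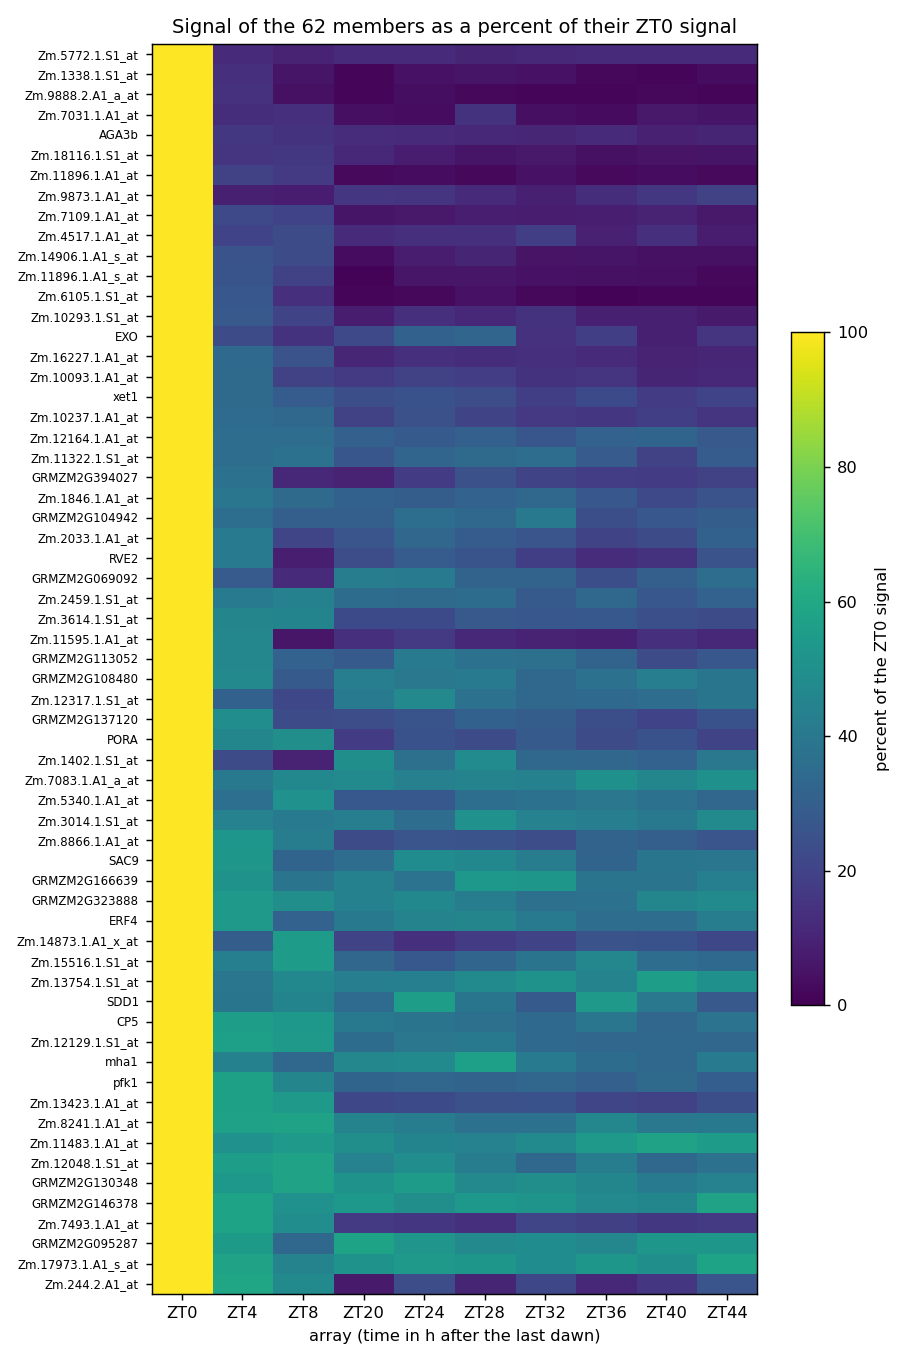
Signal of the 62 members (rows, ordered by the ratio of ZT0 to the highest other array) on the 10 arrays (columns), as a percent of the ZT0 signal. The ZT0 column is 100 by construction; from ZT4 on the rows differ, and the median member was at 39.9% at ZT4 and 28.6% at ZT24.

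Several members matched enzymes and carriers of carbon metabolism. AGA3b (GRMZM2G037265) encodes an alkaline alpha-galactosidase, an enzyme that releases galactose from raffinose-type sugars. Its signal was 1212 at ZT0, 194 at ZT4 and 179 at ZT8, then 152 at ZT20, 148 at ZT24, 135 at ZT28, 131 at ZT32, 144 at ZT36, 109 at ZT40 and 127 at ZT44. AGA3b was thus at 16.0% of its ZT0 signal within 4 h and at 12.2% at ZT24, and ZT4 was the highest of the 9 later arrays. GRMZM2G104942, a match to a glycerol-3-phosphate permease of the major facilitator family, gave 555 at ZT0, 201 at ZT4 and 168 at ZT8, then 168 at ZT20, 199.99 at ZT24, 185 at ZT28, 225 at ZT32, 132 at ZT36, 152 at ZT40 and 164 at ZT44. The later arrays of this permease overlapped between subjective day and night, and ZT24, at 36.04% of ZT0, lay within their range.

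The member nearest the limit with a name, GRMZM2G095287, matched fructose-1,6-bisphosphatase, which removes a phosphate on the way from triose phosphates to sucrose or starch. Its signal was 699.6 at ZT0, 381 at ZT4 and 234 at ZT8, then 406 at ZT20, 366 at ZT24, 331 at ZT28, 341 at ZT32, 325 at ZT36, 371 at ZT40 and 371 at ZT44. The lowest array was ZT8, and the arrays from ZT20 on lay close together at about the ZT4 signal. GRMZM2G146378, a mitochondrial substrate carrier match, gave 414 at ZT0, 239.9 at ZT4 and 209 at ZT8, then 221 at ZT20, 205 at ZT24, 222 at ZT28, 214 at ZT32, 196 at ZT36, 190.0 at ZT40 and 238 at ZT44. Its 9 later arrays spanned a narrow range with no array apart from the rest. The probe set pfk1 (GRMZM2G021846) gave 806 at ZT0, 458 at ZT4 and 368 at ZT8, then 258 at ZT20, 266 at ZT24, 255 at ZT28, 266 at ZT32, 248 at ZT36, 279 at ZT40 and 239.7 at ZT44. Both first-day arrays of pfk1 were above all 7 arrays from ZT20 on, and ZT4 stood 1.75 times above the median of the 8 arrays after it. Zm.884.1.A2_at, a probe set of the same cluster and no member, did not show this. It gave 540.6 at ZT4 and 477.4 at ZT8, and between 450.6 and 551.1 from ZT20 on.

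Members of growth and the cell wall included xet1 (GRMZM2G026980), a xyloglucan endotransglycosylase that cuts and rejoins the xyloglucan chains of the wall. The xet1 signal was 2193 at ZT0, 762 at ZT4 and 642 at ZT8, then 523 at ZT20, 555 at ZT24, 515 at ZT28, 411 at ZT32, 489 at ZT36, 378 at ZT40 and 444 at ZT44. After ZT0 the highest xet1 arrays were ZT4 and ZT8, and the lowest was ZT40. GRMZM2G380432, a match to EXORDIUM, which promotes leaf growth in Arabidopsis in response to brassinosteroids, gave 776 at ZT0, 179 at ZT4 and 115 at ZT8, then 172 at ZT20, 240.3 at ZT24, 252 at ZT28, 109 at ZT32, 144 at ZT36, 69.7 at ZT40 and 120.2 at ZT44. The EXORDIUM match had 2 later arrays above the others, at ZT24 and ZT28, of which ZT24 was at 31.0% of ZT0. The proton pump gene mha1 (GRMZM2G144821), whose plasma membrane ATPase acidifies the wall space and energises uptake, gave 279.8 at ZT0, 123 at ZT4 and 93.2 at ZT8, then 129 at ZT20, 133 at ZT24, 158 at ZT28, 114 at ZT32, 98.5 at ZT36, 93.4 at ZT40 and 114 at ZT44. For mha1 the highest array after ZT0 was ZT28 and the lowest were ZT8 and ZT40.

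Protochlorophyllide reductase carries out the light-requiring step of chlorophyll synthesis, and PORA mRNA is abundant in Arabidopsis and barley seedlings grown in darkness. The seedlings here were grown in photocycles. The member GRMZM2G084958, a PORA match, gave 7406 at ZT0, 3404 at ZT4 and 3654 at ZT8, then 1281 at ZT20, 1859 at ZT24, 1689 at ZT28, 2102 at ZT32, 1687 at ZT36, 1862 at ZT40 and 1532 at ZT44. It stood at 46.0% of ZT0 at ZT4, and both first-day arrays were above all 7 arrays from ZT20 on. A second PORA match, GRMZM2G073351, was no member and gave 4405 at ZT0, 3294 at ZT4 and 4052 at ZT8, then 2337 at ZT20, 2679 at ZT24, 2149 at ZT28, 2549 at ZT32, 2507 at ZT36, 2282 at ZT40 and 2148 at ZT44. That second gene was also above all 7 later arrays at ZT0, ZT4 and ZT8, with a ratio of ZT0 to the highest other array of 1.09.

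RVE2 (GRMZM2G145041) matched REVEILLE 2, an Arabidopsis MYB transcription factor of the same family as the dawn clock proteins CCA1 and LHY. Its signal was 1233 at ZT0, 504 at ZT4 and 106 at ZT8, then 291 at ZT20, 358 at ZT24, 318 at ZT28, 230.4 at ZT32, 155 at ZT36, 181 at ZT40 and 316 at ZT44. The RVE2 match had its lowest array at ZT8, was higher at ZT20, ZT24 and ZT28, lower again at ZT36 and ZT40, and at ZT44 was back at 316. ZT24 lay above both ZT20 and ZT28 but was only 29.0% of ZT0. RVE2 was the 1 member among 11 probe sets of clock and photoreceptor genes. The clock genes GI and PRR7 rose over the first-day arrays. They were at 66.4 and 99.5 at ZT0, at 670.5 and 820.7 at ZT4 and at 2784 and 885 at ZT8. At ZT24 they were at 703.8 and 395.4, above their ZT0 signals.

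The members also held 2 matches to ethylene genes, with ratios of 1.87 and 1.84. GRMZM2G166639, a match to ACC oxidase, which makes ethylene in the last step of its synthesis, gave 993 at ZT0, 509 at ZT4 and 381 at ZT8, then 438 at ZT20, 376 at ZT24, 531 at ZT28, 525 at ZT32, 382 at ZT36, 381 at ZT40 and 427 at ZT44. ZT28 and ZT32 were its highest arrays after ZT0 and ZT24 its lowest. GRMZM2G438202, a match to ERF4, an AP2-domain repressor that responds to ethylene in Arabidopsis, gave 678 at ZT0, 368 at ZT4 and 214 at ZT8, then 275 at ZT20, 304 at ZT24, 308 at ZT28, 283 at ZT32, 242 at ZT36, 242 at ZT40 and 286 at ZT44. The ERF4 match was lowest at ZT8 and, from ZT20 on, was highest at ZT24 and ZT28 and lowest at ZT36 and ZT40.

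**Figure D3:**
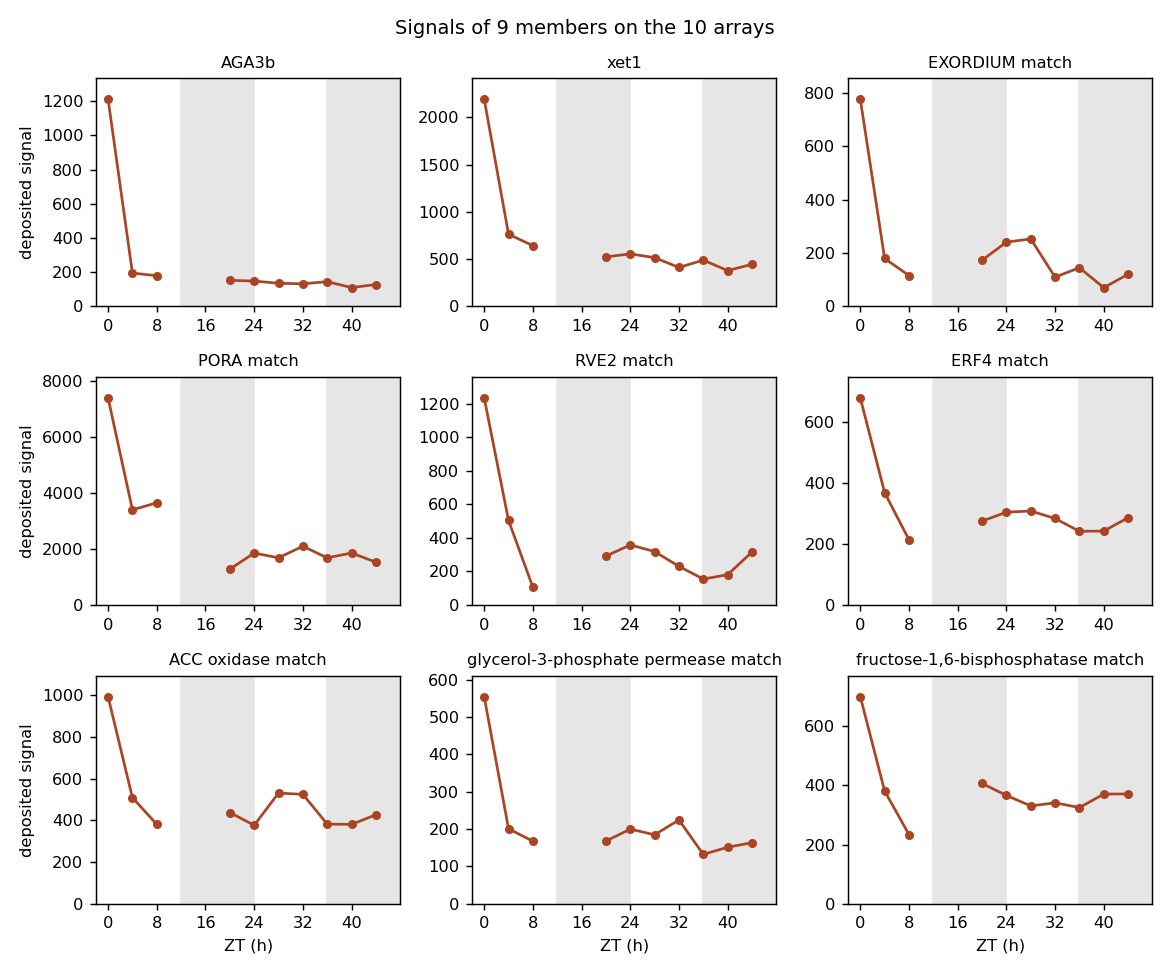
Deposited signal (y axis, linear scale from 0) of 9 members against ZT in hours (x axis), 1 array per point; grey marks subjective night in constant light, and the line is broken over ZT12 and ZT16, which were not used. AGA3b is at 1212 at ZT0 and at 194 or less afterwards, and the RVE2 match has its lowest point, 106, at ZT8.

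The remaining matches with a function concerned proteolysis, membranes and signalling. GRMZM2G013986 matched SDD1, a subtilisin protease that limits stomatal density in Arabidopsis, and gave 336 at ZT0, 131 at ZT4 and 151 at ZT8, then 117 at ZT20, 188 at ZT24, 131 at ZT28, 94.7 at ZT32, 182 at ZT36, 135 at ZT40 and 94.4 at ZT44. Its highest later arrays were ZT24 and ZT36, and at ZT24 it was at 55.9% of ZT0, the highest such percent among the 62. GRMZM2G130348, an F-box protein match, gave 591 at ZT0, 316 at ZT4 and 341 at ZT8, then 302 at ZT20, 327 at ZT24, 277 at ZT28, 292 at ZT32, 270.4 at ZT36, 241 at ZT40 and 263 at ZT44. F-box proteins choose the targets of a class of ubiquitin ligases, and its later arrays lay between 241 at ZT40 and 341 at ZT8. GRMZM2G133937, a match to the phosphoinositide phosphatase SAC9, gave 625 at ZT0, 331 at ZT4 and 202 at ZT8, then 225 at ZT20, 304 at ZT24, 291 at ZT28, 261 at ZT32, 201 at ZT36, 243 at ZT40 and 246 at ZT44. SAC9 had low arrays at ZT8 and ZT36 and higher ones at ZT24 and ZT28. GRMZM2G344205, a match to the membrane-related protein CP5, gave 2569 at ZT0, 1442 at ZT4 and 1368 at ZT8, then 1044 at ZT20, 991 at ZT24, 944 at ZT28, 877 at ZT32, 1012 at ZT36, 845 at ZT40 and 983 at ZT44. For CP5 both first-day arrays lay above all 7 arrays from ZT20 on.

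There were 6 members whose Arabidopsis match has no described function in the annotation used. GRMZM2G394027 gave 403 at ZT0, 153 at ZT4 and 44.5 at ZT8, then 40.9 at ZT20, 72.3 at ZT24, 99.2 at ZT28, 82.2 at ZT32, 72.7 at ZT36, 69.7 at ZT40 and 77.6 at ZT44. It was near the 50 limit at ZT8 and ZT20. GRMZM2G069092 gave 491 at ZT0, 141 at ZT4 and 60.9 at ZT8, then 205 at ZT20, 202 at ZT24, 155 at ZT28, 155 at ZT32, 118 at ZT36, 148 at ZT40 and 176 at ZT44. This transcript was lowest at ZT8 and highest, after ZT0, at ZT20 and ZT24, where it was at 41.2% of ZT0. GRMZM2G113052 gave 1428 at ZT0, 659.9 at ZT4 and 447 at ZT8, then 407 at ZT20, 582 at ZT24, 535 at ZT28, 528 at ZT32, 455 at ZT36, 332 at ZT40 and 388 at ZT44. The other 3, GRMZM2G108480, GRMZM2G137120 and GRMZM2G323888, had ratios of 2.12, 2.03 and 1.85 and each had its highest later array at ZT4.

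Among the 40 members without annotation, Zm.5772.1.S1_at had the largest ratio of all. Its signal was 1067 at ZT0, 132 at ZT4 and 107 at ZT8, then 129.6 at ZT20, 133 at ZT24, 109 at ZT28, 118 at ZT32, 131 at ZT36, 128 at ZT40 and 131 at ZT44. Its 9 later arrays lay between 107 and 133, and the 3 lowest of them, ZT8, ZT28 and ZT32, were subjective-day arrays. Zm.1338.1.S1_at, with the next largest ratio, gave 2053 at ZT0, 279.8 at ZT4 and 120.0 at ZT8, then 37.2 at ZT20, 104 at ZT24, 116 at ZT28, 97.2 at ZT32, 42.2 at ZT36, 31.9 at ZT40 and 65.9 at ZT44. In contrast to Zm.5772.1.S1_at it was intermediate at ZT4 before its low later series. Zm.9873.1.A1_at gave 5079.6 at ZT0, 437 at ZT4 and 402 at ZT8, then 795 at ZT20, 762 at ZT24, 627 at ZT28, 442 at ZT32, 663 at ZT36, 823 at ZT40 and 998 at ZT44. It was the member with the lowest ZT4 percent, 8.61% of ZT0, and was higher on every array from ZT20 on than at ZT4 and ZT8. Zm.16227.1.A1_at, the 1 with a gene ID, gave 1958 at ZT0, 669 at ZT4 and 502 at ZT8, then 213 at ZT20, 262 at ZT24, 256 at ZT28, 266 at ZT32, 233 at ZT36, 190.2 at ZT40 and 207 at ZT44. It was at 34.2% of ZT0 at ZT4 and both first-day arrays were above all 7 arrays from ZT20 on. Zm.10093.1.A1_at gave 2301 at ZT0, 795 at ZT4 and 448 at ZT8, then 389 at ZT20, 442 at ZT24, 422 at ZT28, 338 at ZT32, 344 at ZT36, 239.8 at ZT40 and 253 at ZT44. Both of its lowest arrays were the last, ZT40 and ZT44. Of the 62 members, 5 did not reach a signal of 50 on 3 of the 9 later arrays, among them 2 probe sets of the same cluster, Zm.11896.1.A1_at and Zm.11896.1.A1_s_at, and 2 were under 50 on every later array.

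The rule capped each of the 9 later arrays but did not fix their order. The cap acted most at ZT4: without that array the rule gave 99 probe sets in place of 62. The order was compared with the 12466 probe sets that reached 50 on 3 or more of these arrays, 57 of them members. These probe sets were not chosen by their ZT0 signal, so shares here and below describe the members and do not test them as a group. ZT4 was the highest of the 9 for 29 of the 57 members, or 50.9%, against 14.7% of all probe sets. ZT4 or ZT8 was the highest for 40 of the 57, against 30.6%. With signals floored at 50, ZT4 was at least 1.5-fold above the median of the 8 later arrays for 21 of the 57 members, or 36.8%, against 3.75% of all. These 21 included 6 with a gene ID and annotation: xet1, pfk1, the PORA and RVE2 matches, and GRMZM2G394027 and GRMZM2G137120. The median fold was 1.32 for all 62 members and 0.965 for all probe sets. The largest fold among tested members, 3.97, was that of Zm.11595.1.A1_at. For the other 36 tested members ZT4 was less than 1.5-fold above the later median. ZT8 was the lowest of the 9 for 12 of the 57 members, against 18.6% of all, and these 12 included the RVE2, ERF4 and fructose-1,6-bisphosphatase matches, mha1 and GRMZM2G069092.

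The second dawn, ZT24, was then set against its neighbours. ZT24 was above both ZT20 and ZT28 for 23 of the 57 tested members, or 40.4%, against 26.4% of all probe sets. By size, 2 of the 57 reached 1.5-fold over the mean of ZT20 and ZT28, or 3.51%, against 0.882% of all. They were Zm.244.2.A1_at at 2.68-fold and the SDD1 match at 1.52-fold. Zm.244.2.A1_at gave 1199.8 at ZT0, 704 at ZT4 and 575 at ZT8, then 87.8 at ZT20, 282 at ZT24, 125 at ZT28, 262 at ZT32, 138 at ZT36, 188 at ZT40 and 318 at ZT44. Its arrays from ZT20 on varied widely, from 87.8 at ZT20 to 318 at ZT44. The median of this fold over the 62 members was 1.03 and over all probe sets 0.97. The ZT24 signal was under 50% of ZT0 for 58 members and under 25% for 24, which the rule in part imposed.

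**Figure D4:**
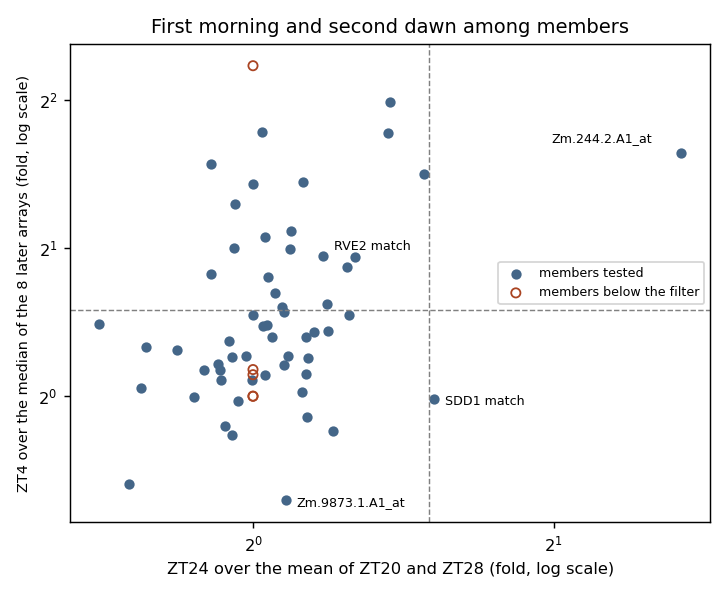
Fold of ZT24 over the mean of ZT20 and ZT28 (x axis) and of ZT4 over the median of the 8 later arrays (y axis), both on log scales and with signals floored at 50, for each of the 62 members; dashed lines mark 1.5-fold. Of the 57 tested members (filled), 21 lie on or above the horizontal line and 2 to the right of the vertical one.

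Whether members followed time of day in constant light was tested without the ZT0 array, with limma on log2 quantile-normalized signals. Between the 4 subjective-night arrays (ZT20, ZT24, ZT40 and ZT44) and the 5 subjective-day arrays, 0 of the 57 members passed the adjusted threshold of 0.05 in either direction, against 0.0% of all probe sets. The clock genes GI and PRR7 did not pass either (limma adjusted p = 0.759 and 0.592). The 0 among members therefore does not show that they lacked a rhythm. At an unadjusted p within 0.05 in limma, 1 member was higher at night, against 3.55% of all, and 3 were lower at night, against 3.98%. The 1 higher at night was Zm.9873.1.A1_at, by 0.57 in log2 (limma adjusted p = 0.552). Zm.3614.1.S1_at was lower at night by 0.37 in log2 (limma adjusted p = 0.626). The median night minus day difference of the members was -0.02 in log2, and 0.00 over all probe sets, with members between -0.65 and 0.57. The RVE2 match had a night minus day difference of 0.43 in log2 (limma adjusted p = 0.826). Without the linear term, 7 members were lower at night at an unadjusted p within 0.05 in limma, against 4.49% of all. In that fit 3 members were higher at night, against 575 of 12466 probe sets. The difference of xet1 was then -0.26 in log2 in place of -0.02, and that of AGA3b -0.23 in place of -0.03.

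A 24-h cosine curve was fitted to the same 9 arrays, with the same cap from the rule, beside a linear change. After adjustment 0 members passed, against 0.0% of all probe sets, and the lowest adjusted p among members was 0.209, that of Zm.9873.1.A1_at. At an unadjusted p within 0.05 in limma there were 16 members, or 28.1%, against 11.3% of all. Their fitted peak-to-trough differences ran from 0.53 to 2.20 in log2. Of the 16, 7 had a fitted peak within 2 h of dawn, 4 within 2 h of ZT4, 3 near ZT12, and 1 each near ZT8 and ZT20. Peak times were not counted over all probe sets, so a dawn phase particular to the members is not shown. The 7 annotated members among the 16 were the EXORDIUM, RVE2, SAC9 and ERF4 matches, mha1, GRMZM2G069092 and GRMZM2G113052. Their fitted peaks lay from 23.5 h to 3.77 h, on either side of dawn. The RVE2 match had a peak-to-trough difference of 1.84 in log2 with a peak at 0.73 h (limma adjusted p = 0.299). The EXORDIUM match had 1.45 in log2 with a peak at 1.75 h (limma adjusted p = 0.366). For mha1 the values were 0.81 in log2 and 1.56 h (limma adjusted p = 0.318). The median peak-to-trough difference was 0.52 in log2 over the 57 members and 0.23 over all probe sets.

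The linear term of that model asked whether signals went on changing from ZT4 to ZT44. After adjustment 0 members passed in either direction, against 0.0722% of all probe sets lower with time and 0.385% higher. At an unadjusted p within 0.05 in limma, 26 of the 57 members were lower with time, or 45.6%, against 9.31% of all, and 2 were higher, against 9.87%. The 26 had fitted changes between -1.20 and -0.28 in log2 per 24 h. The median change of the 57 members was -0.29 in log2 per 24 h, and that of all probe sets was 0.00. Of the 57 members 43 were below 0, against 49.8% of all probe sets. The lowest adjusted p among members was that of Zm.10237.1.A1_at, at -0.78 ± 0.15 (SE) in log2 per 24 h (limma adjusted p = 0.0651). Its signals were 1019 at ZT0, 356 at ZT4 and 345 at ZT8, then 199 at ZT20, 254 at ZT24, 210.0 at ZT28, 169 at ZT32, 160.4 at ZT36, 189 at ZT40 and 153 at ZT44. Each of the 2 first-day arrays of Zm.10237.1.A1_at was above all later ones. For Zm.8241.1.A1_at the fitted change was -0.51 ± 0.10 (SE) in log2 per 24 h (limma adjusted p = 0.0668).

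Among annotated members 7 were lower with time at that unadjusted level and 0 higher. The xet1 change was -0.53 ± 0.11 (SE) in log2 per 24 h (limma adjusted p = 0.0710). AGA3b had -0.48 ± 0.12 (SE) in log2 per 24 h (limma adjusted p = 0.0964), and the CP5 match had -0.48 ± 0.11 (SE) (limma adjusted p = 0.0930). The others were pfk1, the PORA and F-box matches and GRMZM2G323888. The 2 members that were higher with time, Zm.9873.1.A1_at and Zm.1402.1.S1_at, had 0.30 and 0.84 in log2 per 24 h. No annotated member was in both the curve and the linear group, while 4 without annotation were. The same overlap was not counted over all probe sets, so these small counts have no background share.

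**Figure D5:**
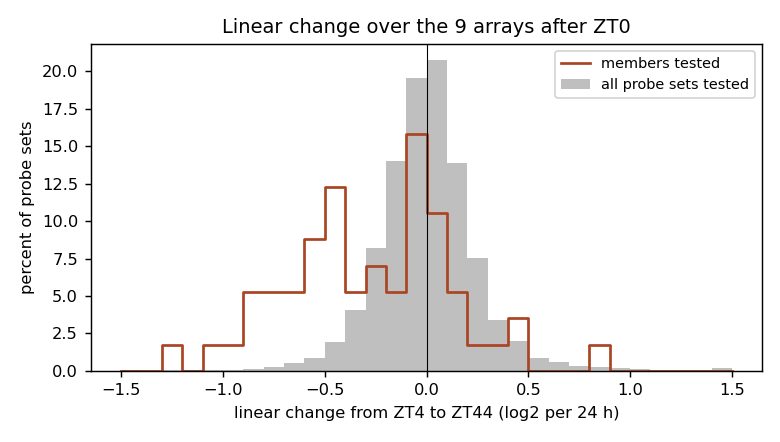
Distribution of the fitted linear change from ZT4 to ZT44 (x axis, log2 per 24 h; values beyond the ends are in the end bins) as a percent of probe sets (y axis), for all 12466 probe sets tested (grey) and the 57 members tested (line). The members' median is -0.29 against 0.00 over all.

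The linear values depended on single arrays. Without ZT20, 18 of the 57 members passed after adjustment as lower with time, or 31.6%, against 5.21% of all probe sets, and 1 passed as higher, against 5.11%. Without ZT44, 7 members passed as lower, or 12.3%, against 0.45% of all, and 0 as higher, against 1.12%. With the curve left out of the model 20 members passed as lower, or 35.1%, against 4.32% of all, and 0 as higher, against 4.73%. With the curve left out and only the 7 arrays from ZT20 on, a fit added after the values had been seen, 0 members passed after adjustment, and 12 of 55 tested members were lower with time at an unadjusted p within 0.05 in limma, or 21.8%, against 3.91% of all probe sets. In that fit 0 members were higher with time, against 3.64% of all. The summed signal of 11 probe sets of chlorophyll-binding proteins was also higher early, at 108400 at ZT0, 110300 at ZT4 and 108300 at ZT8 against 63890 to 93080 on the 7 arrays from ZT20 on, and its part in the members' change was not tested.

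Relatives of the annotated members, listed by gene name after values had been seen, had ZT0 ratios on both sides of 1. The 3 other xyloglucan endotransglucosylase matches, to XTH9, XTR4 and TCH4, had ratios of 1.43, 1.42 and 1.11 against 2.88 for xet1. AGA2 had a ratio of 1.597 and AGA1 was under 50 on every array. A second glycerol-3-phosphate permease match, Zm.18291.1.A1_at, had a ratio of 2.57 and was left out because its ZT0 signal was 151. The beta-amylase match BMY3 (GRMZM2G082034), an enzyme of starch breakdown, was left out for the same reason: it was at 176 at ZT0 and at 14.8 or less on every other array. The mha4 proton pump had a ratio of 0.69, and the 10 other F-box matches had between 0.47 and 1.16. Of 2 matches to ACC synthase ACS6, Zm.11657.1.A1_at had a ratio of 1.35 and the other was under 50 on every array. Of 5 further probe sets described as ethylene responsive, the highest ratio was 1.06 and 1 was under 50 on every array. Zm.2537.1.A1_at and Zm.2547.1.A1_at were lowest at ZT0 and highest at ZT8, the latter at 171 and 914, whereas the ERF4 match was highest at ZT0. The subtilisin protease match SLP2 had a ratio of 1.435, sedoheptulose-bisphosphatase had 0.97, and 3 other mitochondrial carrier matches had between 0.66 and 1.61.

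Counted over gene lists made by name, members made up 1 of 11 clock and photoreceptor probe sets, 2 of 32 hormone, 1 of 34 photosynthesis and chlorophyll, 2 of 134 transcription factor, 2 of 190 kinase and phosphatase, 2 of 124 transporter and 2 of 105 ubiquitin and proteolysis probe sets. They were 1 of 56 for secondary metabolism, through the rice description of AGA3b as a glycosyltransferase. There were 0 members among 36 cell wall and growth, 19 sugar starvation and starch breakdown, 56 histone and cell division, 90 stress and defense, 57 lipid, 54 translation, and 10 nitrogen and sulfur probe sets. The cell wall and growth list was matched on words, and it also holds RNA-binding proteins such as the GR-RBP2 and CCR2 matches. It does not hold xet1, which carries a symbol but no description, nor the EXORDIUM match and mha1. Its 0 therefore does not mean that no member concerned growth or the cell wall. Over the whole array members were 0.352% of probe sets. The lists could draw only on the 3000 annotated probe sets, which held 22 members, so that share is too low a base for them. The median log2 ratio of ZT0 to the median of the other arrays was -0.02 over all probe sets. It was 0.23 in the photosynthesis and chlorophyll list, 0.13 in histones and cell division and 0.12 in translation. It was 0.10 in sugar starvation and starch breakdown and 0.09 in clock and photoreceptors. The other lists, hormones at -0.07 among them, lay between -0.10 in stress and defense and 0.05 in cell wall and growth. In the linear test 1 probe set of these 15 lists passed after adjustment, a transporter, Zm.18344.1.A1_at, which rose by 0.96 in log2 per 24 h (limma adjusted p = 0.0420) and was no member.

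The array held 7 further probe sets that share a cluster number with a member. ZT0 was the highest array for 6 of them, against 17.56% of the 12466 probe sets tested, and none reached the limit together with a signal of 200. Since they share clusters with members chosen by ZT0, this count is a description only. Zm.14873.1.A1_at had a ratio of 1.58, Zm.17973.1.A1_at 1.32, Zm.244.1.A1_at 1.24, Zm.17858.1.A1_at 1.247 and Zm.884.1.A2_at 1.07. Zm.1338.1.A1_at was under 50 on every array, and so was the second mha1 probe set, Zm.13934.1.A1_at, for which ZT0 was not the highest. The 2 probe sets of the pfk1 cluster thus gave ratios of 1.76 and 1.07, and those of the SAC9 cluster 1.89 and 1.247. Members with a suffix of _s_at, _x_at or _a_at, 8 of the 62, hold probes that can match more than 1 transcript.

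Markers of leaf tissue were present on all arrays. Of 11 probe sets of mesophyll C4 enzymes 9 were at 1000 or more on every array, as were 3 of 3 of the bundle sheath and 10 of 11 of the chlorophyll-binding proteins. The summed mesophyll signal was 85300 at ZT0 and between 60680 and 83850 later, and that of the bundle sheath was 32260 at ZT0 and between 19420 and 29220 later. Of 8 zein probe sets of the endosperm 7 were under 50 on every array, as were 4 of 4 embryo storage probe sets. The root iron transporter gene ys1 ran from 73.8 to 213. The summed zein signal was 110 at ZT0 and between 67.4 and 119 later. The part of cell composition in the members' signals was not tested.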

How the data were processed

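The authors hybridized 1 Affymetrix Maize Genome array per time point and deposited signal intensities on a linear scale. The submitters' processing notes name MAS5 without a version. Of 17734 rows, 113 control probe sets were left out. Members, gene lists and tests were chosen with earlier results of these data known. Named are all 22 annotated members and, of the others, up to 2 with the highest ratio, the highest ZT0 signal or the lowest p in each test. Names come from the platform annotation, updated through RefSeq gene tables, and from functions in the study's supplementary tables, held in part; 3000 probe sets had a name or a function. The study's own rhythm results were not used. Zero and low values (2968 under 1) were set to 1. ZT0 was left out, and 9 arrays were quantile normalized in log2 and fitted in R 4.3.3 by lmFit and a trended eBayes of limma 3.58.1. Probe sets had to reach 50 on 3 or more arrays, with Benjamini-Hochberg adjustment over the 12466 probe sets left. The night and day fit and the curve fit each held a linear time term. The night and day fit had 6 residual and 4.2 prior degrees of freedom, and the curve fit 5 and 4.7. The fits were tested on simulated data. The number of arrays limits the precision. Other values were computed with Python 3.11.15, pandas 2.3.3 and numpy 2.4.6.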

Additional observations from a re-analysis of the deposited data

How the results depend on the processing

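The rule gave 106 probe sets at a 1.5-fold limit and 36 at a 2-fold limit in place of 62, and between 62 and 99 with 1 other array left out, the most without ZT4. With ZT0 minimums of 100 and 400 it gave 73 and 53. The night and day test called 0 probe sets under every alternative run. For the 24-h curve, 0 calls became 1 with deposited values, with median centring and with a pseudocount of 32, 45 over the arrays from ZT24 on (2 of them members), and between 0 and 13 with 1 array left out, while members stayed at 0 in those. For the linear change, 57 calls became 86 with deposited values, 13 without a filter, 1128 with the linear change alone, 326 at an adjusted p of 0.10 and 0 with the linear change alone over the arrays from ZT20 on. With 1 array left out they ran from 0 (without ZT8) to 1285 (without ZT20). Members called for a linear change were 0, but 20 with the linear change alone, 10 at an adjusted p of 0.10, and between 0 and 19 with 1 array left out. The cause was not tested. The share of members at least 25% above the later median at ZT4 was 57.9%, against 12.4% of all probe sets. Of 1677 refits of 90 values for named members, 1550 kept direction and side of the threshold, 28 passed it and 99 changed sign below it. No paired analysis of replicates was possible because there was 1 array per time point, and the days were not paired by clock time. Signals near 50 or below are limited by background.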
